A study of Mus musculus with 15 samples.

Results

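The proteasome genes of mouse stem and progenitor cells were followed across 5 groups of 3 RNA sequencing libraries. A gene was taken as a member when its symbol began with Psma, Psmb, Psmc, Psmd, Psme, Psmf or Psmg followed by a digit, and symbols with -ps were left out. The rule found 50 of the 44827 genes in the authors' table. Of these, 49 reached 1 CPM (counts scaled to a common library size, with the library sizes behind the authors' values) in at least 3 libraries, as did 13927 genes in all, and only those were tested. The member that did not pass was Psmb11, the catalytic subunit of the thymus proteasome, which had from 0 to 3 counts per library. The 4 symbols with -ps were not used. One matched symbol, Psmc3ip, names a factor of meiotic recombination and no proteasome subunit, and Psme2b is a near copy of Psme2 whose reads the counting may have split.

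The series holds RNA from bone marrow cells sorted as LSK, that is, cells without lineage markers and with Sca1 and cKit on their surface, from C57BL/6 mice. The groups were WT, Tet2-/- (loss of the DNA demethylase gene Tet2), Nras(G12D) (an activating mutation of the Nras GTPase), Tet2-/- Nras(G12D) without leukemia, called the double mutant here, and Tet2-/- Nras(G12D) with leukemia, called the leukemic double mutant. The mutant alleles were conditional and specific to blood-forming tissue, the driver that induces them is not named in the labels, and 6 months is given as the age of the animals whose methylome was examined. Whether libraries of 1 group stem from different animals is not in the labels, so each p-value measures the spread between these libraries. The leukemic libraries alone carry the word BMT in their description, and leukemia cannot be told apart from what this word stands for.

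The proteasome is the barrel-shaped protease that degrades proteins tagged with ubiquitin. Its core particle is built of rings of alpha subunits, which control entry, and rings of beta subunits, of which Psmb5, Psmb6 and Psmb7 carry the active sites, and a regulatory particle made of a base with ATPase subunits and a lid caps it, binds ubiquitin chains and unfolds the substrate. In blood cells and under interferon, Psmb8, Psmb9 and Psmb10 can take the places of Psmb5, Psmb6 and Psmb7 in newly made particles, which are then called immunoproteasomes and produce peptides for display on MHC class I.

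Total counts per library ran from 22733189 to 43562909. Some libraries stood apart before any comparison. On the first principal component of all tested genes, which held 42% of the variance, Tet2-/- libraries 1 and 3 lay at -105.2 and -90.4 against -53.6 for library 2, and leukemic libraries 2 and 3 lay at 146.6 and 113.6 against 51.6 for library 1. The LSK markers Kit, Ly6a, Cd34, Mecom, Hlf and Procr were present in all groups. They summed to 2871 to 3336 CPM in WT and to 2079, 585 and 1006 CPM in leukemic libraries 1 to 3. Of the 6, 5 fell there against WT (limma), beside 1938 of all 13927 tested genes. The exception was Ly6a, with 103, 87.5 and 73.6 CPM in WT, against 114, 64.7 and 189 in the leukemic libraries. The erythroid markers Hba-a1, Hbb-bs and Klf1 summed to 20.02 to 29.1 CPM in WT and to 60.2, 1117 and 473 CPM in the leukemic libraries. Of these 3, 2 rose against WT and 3 against the double mutant, beside 10.8% and 9.04% of all tested genes. Of 7 dendritic cell markers, 5 fell in the leukemic libraries against the double mutant, beside 2123 of all tested genes. In such bulk samples a lower share of cells of a type and less RNA per cell cannot be told apart.

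In WT cells most subunits of the core and regulatory particles were abundant. Per kilobase of the principal annotated transcript (GENCODE release M21), the 7 alpha ring genes ran from 55.9 CPM per kb for Psma3 to 346 for Psma7. The 7 constitutive beta ring genes ran from 82 CPM per kb for Psmb5 to 288 for Psmb6, and the 6 base ATPase genes from 71.8 for Psmc6 to 167 for Psmc3. The immunoproteasome genes were of the same order in these WT cells, at 143 CPM per kb for Psmb8, 192 for Psmb9 and 122 for Psmb10. Among the activators, Psme1, whose product joins that of Psme2 in a ring that opens the core without ATP, had 315 CPM per kb, and Psme4, which encodes a large single-chain activator, had 5. The inhibitor Psmf1 stood at 19.7 CPM per kb, and Psma8, an alpha subunit known from the testis, at 10.4. All later levels are CPM without division by length and are compared only between libraries of 1 gene.

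Between the leukemic and the non-leukemic double mutant, proteasome genes rose together. Of the 49 members, 34 rose and 0 fell (limma, Benjamini-Hochberg adjusted p below 0.05), 69.4% of them against 9.04% of all tested genes that rose. The members' median log2 change was 0.84, beside -0.10 for all tested genes, and the called changes ran from 0.58 to 1.74. The rise covered all 6 base ATPases, all 7 alpha ring genes, all 7 constitutive beta ring genes, all 3 other base subunits, 7 of the 8 lid genes and the inhibitor Psmf1. It covered 3 of the 7 assembly chaperones, and 0 of the 5 activators and 0 of the 3 immunoproteasome genes passed. The activator Psme3 had a log2 change of 1.35 and missed the threshold. In 38 members, or 77.6%, all 3 leukemic libraries lay above all 3 of the double mutant, against 19.7% of all tested genes.

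Against WT the rise in the leukemic cells took in fewer members. There 23 members rose and 0 fell, 46.9% of the members against 10.8% of all tested genes that rose, with a median log2 change of 0.60 against 0.00 for all tested genes. The 23 were 5 of 6 base ATPases, 4 of 7 alpha ring genes, 4 of 7 constitutive beta ring genes, 2 of 3 other base subunits, 5 of 8 lid genes, the activator Psme3, the inhibitor Psmf1 and the chaperone Psmd9. The 3 leukemic libraries lay above the 3 WT libraries in 34 members, or 69.4%, against 24% of all tested genes. These 2 comparisons share the leukemic libraries, so their counts are not independent of each other.

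**Figure D1:**
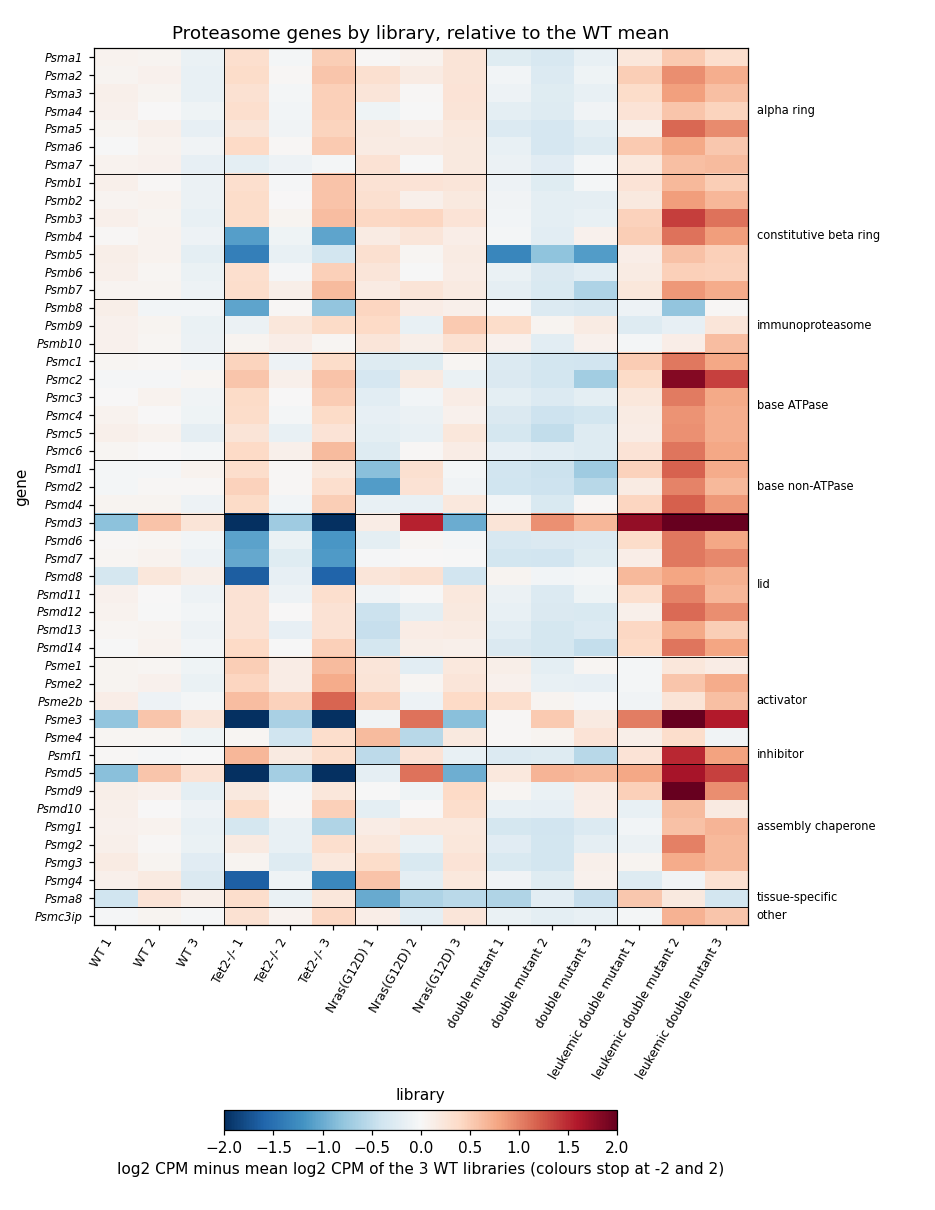
Level of the 49 tested proteasome genes in each of the 15 libraries, as the log2 CPM minus the mean log2 CPM of the 3 WT libraries (colour), with genes in lines grouped by role and libraries in columns grouped by genotype. Leukemic libraries 2 and 3 are red in nearly every line of the core and regulatory particles, the immunoproteasome lines have both signs, with Psmb8 blue in leukemic library 2 and in Tet2-/- libraries 1 and 3 and Psmb10 red in leukemic library 3, and Psmd3, Psmd5 and Psme3 are blue in Tet2-/- libraries 1 and 3.

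The 3 leukemic libraries did not contribute alike. All members together made up 8806, 9231 and 8382 CPM in WT libraries 1 to 3, 7961, 7523 and 7793 CPM in the double mutant, against 10869, 17076 and 14625 CPM in the leukemic double mutant. Leukemic library 1 exceeded every WT library in 36 members, library 2 in 45 and library 3 in 46 of the 49, beside 39.5%, 43.7% and 42.6% of all tested genes, and the members' median log2 difference from the WT mean was 0.22, 0.87 and 0.68 in turn. Without leukemic library 2, 12 members rose against the double mutant and only Psmb3 rose against WT (limma), beside 2.94% and 4.06% of all tested genes. Without library 3 the counts were 20 and 7, beside 4.28% and 4.59%. With both left out, 1 leukemic library remained, and its spread was assumed to be that of the other groups. That fit called few genes of any kind higher, 0.302% against the double mutant and 0.23% against WT, so its count of 0 members says little about them, and the members' medians were 0.47 and 0.22. The libraries with the highest proteasome sum were also those with the highest erythroid and lowest LSK marker sums given above. The part of these markers' cells in the rise was not tested.

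The scaling of the libraries also moved these counts. The authors' scaling factors were lowest for leukemic libraries 2 and 3, at 0.813 and 0.883 times the total count, which raises every CPM value there. When the total count was used instead, the median of all tested genes shifted to -0.26 against WT and -0.34 against the double mutant, and 4 members (Psmb3, Psmc2, Psmd3 and Psmd9) and 23 members rose, beside 6.99% and 5.64% of all tested genes. One factor per library moves all its genes alike, so the distance of the members' median from that of all genes, 0.60 and 0.94, cannot change with it. Quantile normalization can change it, and there the distance was 0.32 and 0.58. It left the same 4 members risen against WT and 14 against the double mutant, beside 9.96% and 8.65% of all tested genes. As a share of a library's total count, which needs no scaling factor, all members made up 0.97, 0.958 and 0.878% in WT, 0.848, 0.755 and 0.817% in the double mutant, against 1.05, 1.39 and 1.29% in the leukemic libraries 1 to 3, so each leukemic library exceeded all 6 others.

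In the core particle, Psmb3, a beta subunit without an active site, kept its rise against WT in 28 of the 29 alternative settings. It measured 117, 114 and 99.4 CPM in WT libraries 1 to 3, 106, 95.9 and 99.1 CPM in the double mutant, against 152, 285 and 233 CPM in the leukemic libraries. All leukemic values were above the other 6, and library 1 was the closest to them. The log2 change was 0.98 ± 0.23 (standard error; limma adjusted p = 0.0096) against WT and 1.11 ± 0.23 (standard error; limma adjusted p = 0.0059) against the double mutant.

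Psmb5 encodes the chymotrypsin-like active site and had the largest rise of the core particle genes over the double mutant, with a log2 change of 1.47 ± 0.28 (standard error; limma adjusted p = 0.0045). Its levels were 29.8, 42.2 and 33.9 CPM in the double mutant, against 80.6, 110.4 and 103 CPM in the leukemic double mutant, with no overlap. In WT it stood at 79.5, 77.2 and 64.5 CPM, and the leukemic libraries differed from WT by only 0.40 ± 0.28 (standard error; limma adjusted p = 0.309). All 3 leukemic libraries lay above WT, library 1 by little. The caspase-like subunit gene Psmb6 measured 247, 235 and 209 CPM in WT, 210.1, 187 and 198 in the double mutant, against 258, 319 and 316 in the leukemic libraries, a log2 change of 0.58 ± 0.18 (standard error; limma adjusted p = 0.032) against the double mutant. The trypsin-like subunit gene Psmb7 measured 121, 121 and 109.6 CPM in WT, 104, 94.6 and 76.5 in the double mutant, against 137, 214 and 196 in the leukemic libraries. Its rise was 0.98 ± 0.21 (standard error; limma adjusted p = 0.007) against the double mutant and 0.61 ± 0.21 (standard error; limma adjusted p = 0.047) against WT, where 17 of the 29 alternative settings did not call it.

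The alpha ring genes moved by less and more evenly. Their log2 changes against the double mutant ran from 0.59 for Psma1 to 0.998 for Psma5. Psma6 was at 273, 289.7 and 263 CPM in WT, 249, 219 and 229 CPM in the double mutant, against 394, 463 and 399 CPM in the leukemic double mutant. Leukemic library 1 was close to library 3 here, all leukemic values lay above the other 6, and the change was 0.85 ± 0.17 (standard error; limma adjusted p = 0.0048) against the double mutant and 0.60 ± 0.17 (standard error; limma adjusted p = 0.019) against WT. For Psma2 the changes were 0.85 ± 0.18 (standard error; limma adjusted p = 0.007) and 0.71 ± 0.18 (standard error; limma adjusted p = 0.014). Psma3 rose by 0.75 and 0.59 (limma adjusted p = 0.013 and 0.034).

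In the base of the regulatory particle, Psmc2, one of the 6 ATPases that unfold the substrate, rose the most. Its levels were 161, 160.2 and 168 CPM in WT, 134, 126 and 100.5 CPM in the double mutant, against 213, 581 and 422 CPM in the leukemic double mutant. Libraries 2 and 3 were far above library 1, and the groups did not overlap. The change was 1.65 ± 0.30 (standard error; limma adjusted p = 0.0038) against the double mutant, 3.13-fold, and 1.196 ± 0.30 (standard error; limma adjusted p = 0.012) against WT. In leukemic library 1 alone the estimates for Psmc2 were 0.83 and 0.38.

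Psmc1, the ATPase gene with the smallest adjusted p among all members against the double mutant, measured 250.2, 249.8 and 234 CPM in WT, 201, 189 and 188 in the double mutant, against 347, 509.8 and 420.3 in the leukemic libraries. Its change was 1.12 ± 0.19 (standard error; limma adjusted p = 0.0032) there and 0.78 ± 0.19 (standard error; limma adjusted p = 0.012) against WT, and no leukemic value fell into either range. Psmc4 rose by 0.95 ± 0.20 (standard error; limma adjusted p = 0.0069) against the double mutant. The scaffold subunit genes Psmd1 and Psmd2 and the ubiquitin receptor gene Psmd4 rose against the double mutant by 1.30, 1.06 and 0.94 on the log2 scale (limma adjusted p = 0.0054, 0.022 and 0.0098). Psmd1 had 264, 257 and 212 CPM in the double mutant, against 475, 785 and 578 CPM in the leukemic libraries, which did not overlap.

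In the lid, 7 of 8 genes passed as higher than in the double mutant, and Psmd8 did not, at 0.73 ± 0.33 (standard error; limma adjusted p = 0.119). Psmd8 had 205, 190 and 193 CPM in the double mutant, against 309, 343 and 322 in the leukemic libraries, with no overlap. Its standard error draws on all 5 groups, among them Tet2-/- with 63.2, 176 and 65.5 CPM. Psmd14, the deubiquitinase that cuts ubiquitin chains from the substrate, measured 208, 219.6 and 200.3 CPM in WT, 171, 164 and 150.1 in the double mutant, against 276, 437 and 361 in the leukemic libraries, which lay above all others. It rose by 1.13 ± 0.21 (standard error; limma adjusted p = 0.0041) against the double mutant and 0.75 ± 0.21 (standard error; limma adjusted p = 0.02) against WT. Psmd6 and Psmd7, lid subunits without catalytic activity, rose by 1.02 and 1.05 (limma adjusted p = 0.012 and 0.012). Psmd3, a scaffold subunit of the lid, had the largest estimates of any member, 2.35 ± 0.59 (standard error; limma adjusted p = 0.013) against WT and 1.74 ± 0.59 (standard error; limma adjusted p = 0.046) against the double mutant. Its levels were 58.9, 154 and 126 CPM in WT, 125, 197 and 166 in the double mutant, against 355, 731 and 583 in the leukemic libraries, with a wide spread inside each group but no overlap. Against the double mutant 13 of the 29 alternative settings did not call Psmd3.

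Outside the core and regulatory particles the picture was mixed. Psmf1, whose product inhibits the core particle in the test tube, measured 76.4, 74.1 and 74.4 CPM in WT, 61.9, 62.4 and 50.8 in the double mutant, against 91, 214 and 131 in the leukemic libraries. It rose by 1.23 ± 0.29 (standard error; limma adjusted p = 0.0098) against the double mutant and 0.87 ± 0.29 (standard error; limma adjusted p = 0.041) against WT. Of the chaperones that build the particle, Psmd9 rose by 1.13 ± 0.31 (standard error; limma adjusted p = 0.02) and 1.15 ± 0.31 (standard error; limma adjusted p = 0.017), with leukemic values of 79.7, 233 and 108 CPM of which library 2 was far above the other 2. The core chaperone genes Psmg1 and Psmg2 rose against the double mutant by 0.73 and 0.77 (limma adjusted p = 0.025 and 0.042).

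The activator genes Psme1 and Psme2, which interferon gamma is known to induce, did not pass in either comparison. Psme1 measured 364, 358 and 329 CPM in WT, 378, 305 and 359.7 in the double mutant, against 342, 409.8 and 386 in the leukemic libraries, ranges that overlap, with a log2 change of 0.13 ± 0.18 (standard error; limma adjusted p = 0.636) against the double mutant. Psme2 measured 177, 182 and 156 CPM in WT, 183, 154 and 153 in the double mutant, against 168, 253 and 286 in the leukemic libraries, and its change was 0.50 ± 0.22 (standard error; limma adjusted p = 0.110). Leukemic library 1 lay among the WT and double mutant values of Psme2, and libraries 2 and 3 above them. Psme2b, at 15.4 to 36.8 CPM in all libraries, had 0.14 ± 0.26 (standard error; limma adjusted p = 0.725). The nuclear activator gene Psme3 spread widely, as Psmd3 did, with 444, 978 and 653 CPM in the leukemic libraries and a change of 1.59 ± 0.53 (standard error; limma adjusted p = 0.042) against WT and 1.35 ± 0.53 (standard error; limma adjusted p = 0.077) against the double mutant. The double mutant values of Psme3, 222, 314 and 246 CPM, all lay below the leukemic ones. The standard error draws on the spread in all 5 groups. Psma8 and Psmc3ip were not called in either comparison, with estimates of 0.54 and 0.56 against the double mutant.

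**Figure D2:**
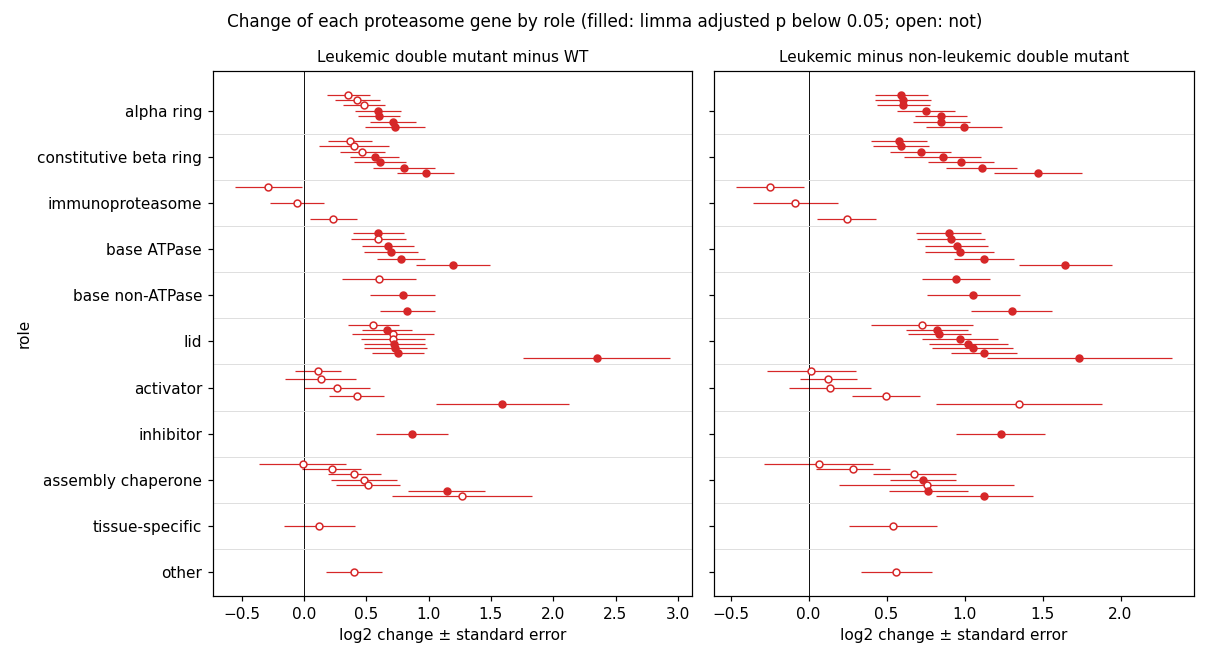
Log2 change (horizontal axis) with its standard error for each tested proteasome gene, by role (vertical axis), in the leukemic double mutant against WT (left) and against the non-leukemic double mutant (right); filled points have a limma adjusted p below 0.05. All 20 alpha ring, constitutive beta ring and base ATPase genes are filled on the right, whereas the 3 immunoproteasome genes are open and near 0 in both panels.

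The immunoproteasome genes were set against the other 46 tested members. Psmb8 and Psmb9 lie next to the peptide transporter gene Tap1 in the MHC region (GRCm38 chr17:34197721-34201454 on the plus strand and chr17:34181987-34187764 on the minus strand), and Psmb10 lies elsewhere (chr8:105935735-105938444 on the minus strand). The CPM values of Psmb8 for libraries 1 to 3 were 252, 224 and 223 for WT, 112, 237 and 134 for Tet2-/-, 314, 259 and 251 for Nras(G12D), 229, 194 and 187 for the double mutant and 217, 135 and 238 with leukemia. Tet2-/- libraries 1 and 3 and leukemic library 2 were the lowest, and the leukemic range spanned that of the double mutant and overlapped that of WT. The CPM values of Psmb9 for libraries 1 to 3 were 274, 268 and 237 for WT, 239.8, 303 and 339 for Tet2-/-, 343, 233 and 373 for Nras(G12D), 334, 268 and 289.9 for the double mutant and 217, 232 and 308 with leukemia. Each mutant range overlapped that of WT. The CPM values of Psmb10 for libraries 1 to 3 were 169.8, 164 and 147 for WT, 166, 175 and 164 for Tet2-/-, 188, 173 and 197 for Nras(G12D), 170.5, 139 and 169.8 for the double mutant and 155, 176 and 245 with leukemia, where library 3 was the highest of all 15.

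The leukemic changes of these genes were -0.08 ± 0.27 (standard error; limma adjusted p = 0.840) for Psmb8, -0.25 ± 0.22 (standard error; limma adjusted p = 0.413) for Psmb9 and 0.25 ± 0.19 (standard error; limma adjusted p = 0.359) for Psmb10 against the double mutant. Against WT they were -0.29, -0.06 and 0.23 (limma adjusted p = 0.458, 0.873 and 0.380). None of the 3 was called in any of the 7 pairs of groups, and of 30 settings, the one reported included, 2 called any. Leaving out Tet2-/- library 2 called Psmb8 as lower in Tet2-/- than in WT (-0.92) and the double mutant. Weighting libraries by quality with voom called the same pairs. It also called Psmb10 as higher in the leukemic double mutant than in WT (0.56) and the double mutant (0.61). Its weights for leukemic libraries 1 to 3 were 0.225, 0.433 and 4.11. The Psmb10 estimates thus rest mostly on library 3, which had the most Psmb10.

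The mean log2 level of the immunoproteasome genes minus that of the other members gives their standing inside a library without regard to its scaling. This difference was 0.65 ± 0.10 (SD, n = 3) for WT, 0.57 ± 0.26 for Tet2-/-, 0.84 ± 0.22 for Nras(G12D), 0.83 ± 0.12 for the double mutant and -0.04 ± 0.46 for the leukemic double mutant. The leukemic values were 0.22, -0.56 and 0.23 in libraries 1 to 3, all below the lowest of the other groups, 0.36 in Tet2-/- library 1. The leukemic mean was lower by 0.69 than the WT mean and by 0.87 than that of the double mutant. Without leukemic library 2 these differences were -0.42 and -0.60. The other 46 members went from a mean log2 CPM of 6.90 ± 0.03 to 7.73 ± 0.33, while the immunoproteasome mean went from 7.73 ± 0.14 to 7.70 ± 0.30.

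The ratio of each immunoproteasome gene's counts to those of the constitutive gene it replaces was lower in every leukemic library than in all WT and double mutant libraries. Against Tet2-/- the leukemic means were lower, at 2.08 and 3.31, 0.85 and 1.08, and 1.07 and 1.13 in the order below, but the ranges overlapped. Psmb8 to Psmb5 was 3.17, 2.91 and 3.46 in WT, 7.68, 4.59 and 5.53 in the double mutant, against 2.69, 1.22 and 2.31 in the leukemic libraries. The double mutant lay above and the leukemic double mutant below all WT libraries. Psmb9 to Psmb6 was 1.11, 1.14 and 1.13 in WT, 1.59, 1.43 and 1.46 in the double mutant, against 0.84, 0.726 and 0.975 in the leukemic libraries, and those 3 groups again did not overlap. Psmb10 to Psmb7 was 1.4, 1.35 and 1.34 in WT, 1.64, 1.47 and 2.22 in the double mutant, against 1.13, 0.824 and 1.25 in the leukemic libraries. Tet2-/- libraries 1 to 3 gave 3.96, 3.6 and 2.36 for Psmb8 to Psmb5, 0.831, 1.34 and 1.06 for Psmb9 to Psmb6 and 1.11, 1.38 and 0.903 for Psmb10 to Psmb7, and each of these ranges overlapped the leukemic one. Nras(G12D) gave 3.44, 3.42 and 3.06 for Psmb8 to Psmb5, within the WT range, 1.27, 1.03 and 1.46 for Psmb9 to Psmb6 and 1.43, 1.24 and 1.48 for Psmb10 to Psmb7, where its library 2 lay just below leukemic library 3. The ratio compares counts and is not corrected for transcript length, so it ranks libraries and not the 2 genes. In the double mutant the denominators were below WT, with log2 estimates of -1.07 for Psmb5, -0.21 for Psmb6 and -0.37 for Psmb7, and the numerators differed by -0.20, 0.19 and -0.01. None of these 6 differences passed limma's adjusted threshold.

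**Figure D3:**
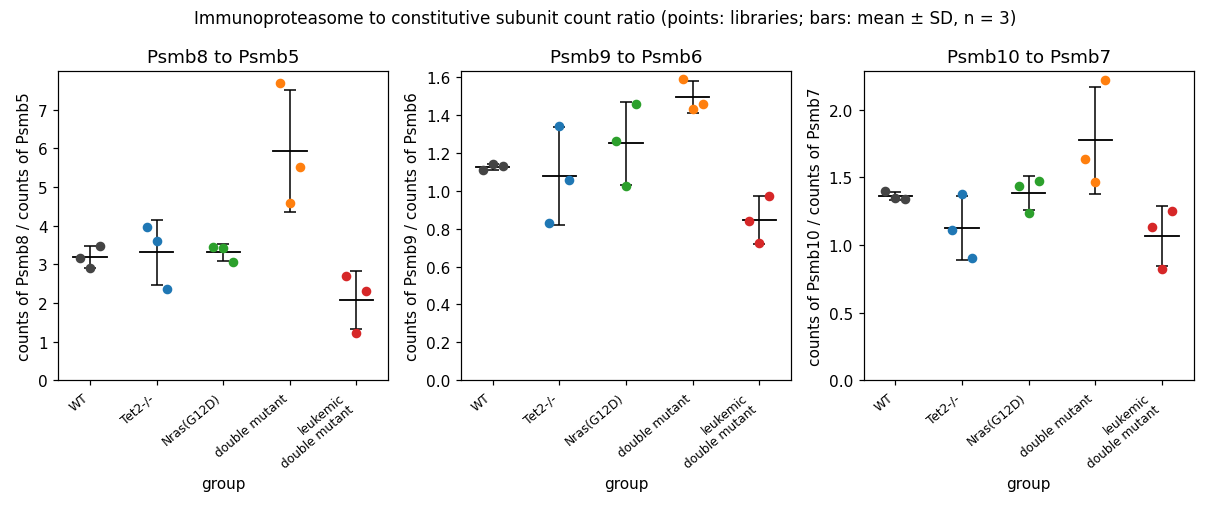
Ratio of counts of each immunoproteasome gene to those of the constitutive gene it replaces (vertical axes, from 0), by group (horizontal axes), with 1 point per library and bars for the mean ± SD of 3 libraries. In all 3 panels the leukemic points lie below and the double mutant points above those of WT, and the Tet2-/- points overlap the leukemic ones.

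Across the 15 libraries the mean log2 level of Psmb8, Psmb9 and Psmb10 was most like that of Igkv8-24 (Pearson r = 0.82, a low gene with at most 2.59 CPM in any group mean), Bst2 (0.80), an interferon-induced membrane protein, Vkorc1 (0.80) and Cuta (0.79). The 15 points share groups, library scaling and the libraries that stand apart, and these r are descriptions. The immunoproteasome genes themselves were only loosely tied, with r of 0.30 between Psmb8 and Psmb9, 0.27 between Psmb8 and Psmb10 and 0.47 between Psmb9 and Psmb10.

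In the groups without leukemia fewer members passed against WT. For the double mutant 0 of 49 passed, beside 0.682% of all tested genes, and 1 had an unadjusted p below 0.05. With voom quality weights 10 passed, all lower, beside 26.3% of all tested genes. The estimates were mostly below 0. In 42 of 49 the double mutant mean was below WT, the median log2 difference was -0.19 against 0.00 for all tested genes (with quantile normalization -0.20 against -0.13), and in 22, or 44.9%, all 3 libraries lay below the 3 of WT, against 20.8% of all tested genes. Against Nras(G12D) 0 of 49 passed, beside 0.079% of all genes, 6 had an unadjusted p below 0.05, voom quality weights called 0 beside 0.158% of all genes, and 23 members, or 46.9%, lay wholly below against 6.87% of all tested genes.

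Psmb5 was the member that set the double mutant apart most. Its CPM values were 79.5, 77.2 and 64.5 for WT, 28.4, 66 and 56.8 for Tet2-/-, 91.3, 75.8 and 82.1 for Nras(G12D) and 29.8, 42.2 and 33.9 for the double mutant. The double mutant values lay below every WT and Nras(G12D) library and overlapped only Tet2-/-, through its library 1. The log2 difference was -1.07 ± 0.28 (standard error; limma adjusted p = 0.093) from WT and -1.25 ± 0.28 (standard error; limma adjusted p = 0.197) from Nras(G12D). It passed against WT with quantile normalization (limma adjusted p = 0.02), with median centring (0.036) and when only the 2 groups were fitted (0.026). Its alternatives are thus on both sides of the threshold. In Nras(G12D) against WT 0 of 49 members passed, as 0% of all tested genes did, 1 had an unadjusted p below 0.05, and voom quality weights called 0 beside 0% of all genes. There 10 members, or 20.4%, lay wholly above WT, against 5.52% of all tested genes, among them small differences such as that of Psmb3, 0.38 ± 0.23 (standard error; limma adjusted p = 0.984).

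In Tet2-/- the 3 libraries differed among themselves. Against WT 0 of 49 passed limma, beside 0.23% of all tested genes, and 12 had an unadjusted p below 0.05. With voom quality weights, which gave Tet2-/- library 2 little weight, 22 rose and 11 fell beside 49.8% of all tested genes called. Tet2-/- libraries 1 and 3 had over 1.5-fold less than library 2 for 9 members, namely Psmb4, Psmb8, Psmd3, Psmd5, Psmd6, Psmd7, Psmd8, Psme3 and Psmg4. That is 9 of 49, no larger a share than the 21.5% of all tested genes. In 35 other members of the 49 libraries 1 and 3 both lay above library 2, beside 45% of all tested genes. Psmd3 measured 18.1, 63.8 and 20.2 CPM in Tet2-/- libraries 1 to 3, Psmd5, a chaperone of the base, 16.8, 65.6 and 17.4 CPM, and Psme3 38.1, 139 and 47.5 CPM. Psma6 went the other way with 364, 279 and 394 CPM. The longest transcripts of the 9 genes had a median GC content of 52.2%, beside 49.2% in the 35 and 49.25% in all tested genes with a value.

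Psmd3, Psmd5 and Psme3 also varied between libraries inside the other groups. In WT libraries 1 to 3 Psmd3 had 58.9, 154 and 126 CPM, Psmd5 59.1, 155 and 128 and Psme3 126, 319 and 257, so library 1 was low in all 3. In Nras(G12D) the same genes had 116, 303 and 52.8, 93.4, 224 and 53.8 and 207, 464 and 122 CPM, with library 2 highest and library 3 lowest in each. Over the 15 libraries their log2 levels gave r of 0.97 (Psmd3 with Psmd5), 0.99 (Psmd3 with Psme3) and 0.98 (Psmd5 with Psme3), where the points share the groups and the scaling. Against another lid gene in the same library, counts of Psmd3 were 0.31, 0.86 and 0.72 times those of Psmd12 in WT libraries 1 to 3 and 0.0815, 0.351 and 0.0917 times in Tet2-/-, ratios that no scaling of a library can move. The ratio was 0.86, 1.91 and 0.255 times in Nras(G12D) and 0.765, 1.32 and 1.13 times in the double mutant. In the leukemic libraries it was 1.82, 1.84 and 1.69 times, all below Nras(G12D) library 2.

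**Figure D4:**
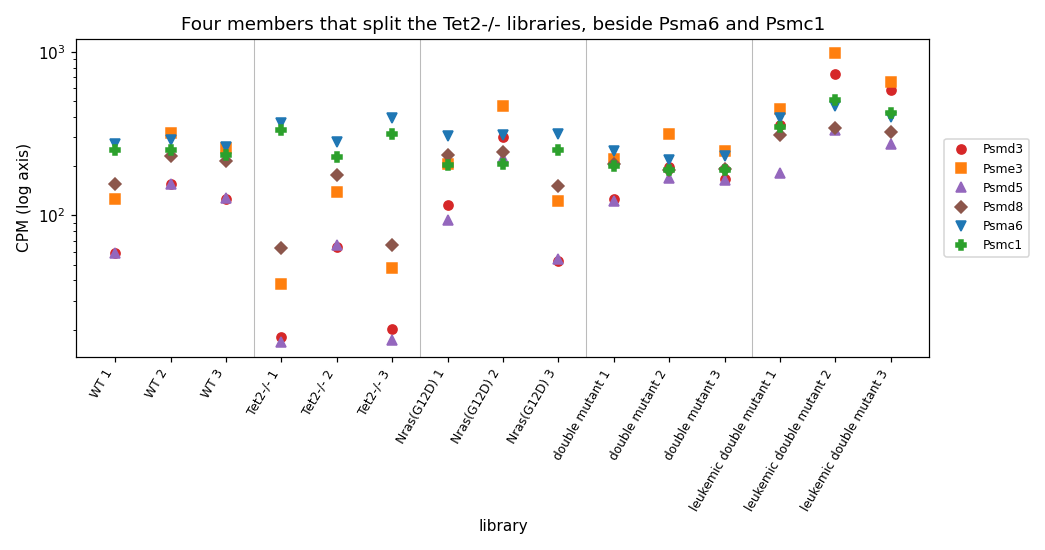
Level in CPM (vertical axis, logarithmic) of Psmd3, Psme3, Psmd5 and Psmd8, which are low in Tet2-/- libraries 1 and 3, and of Psma6 and Psmc1, which are not, in each of the 15 libraries (horizontal axis). Psmd3 spans 18.1 to 730.5 CPM, whereas Psma6 spans 219 to 463 CPM.

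This spread inside Tet2-/- bears on what the double mutant shows against it. There 4 members rose and 7 fell, 8.16% and 14.3% of the 49 beside 20.1% and 8.57% of all tested genes. The 4 that rose were Psmd5 (2.49 on the log2 scale), Psmd3 (2.48), Psme3 (2.03) and Psmd8 (1.12), all among the 9 low in Tet2-/- libraries 1 and 3. The 7 that fell were Psmc2 (-0.86), Psmb7 (-0.73), Psmd14 (-0.67), Psmc4 (-0.59), Psmc1 (-0.58), Psma6 (-0.56) and Psma1 (-0.50), core and regulatory particle genes that the same libraries had high. Without Tet2-/- library 1, 1 member passed (Psmd5), beside 9.03% of all tested genes, and without library 3, 2 passed (Psmd3 and Psmd5), beside 11.5%. Without library 2, 31 passed, beside 37.6%. With libraries 1 and 3 both left out, 1 Tet2-/- library remained, with the spread taken from the other groups, and since 0.0215% of all tested genes passed there, its count of 0 members says nothing about them. With median centring, which moves the median of all tested genes to -0.46, 3 rose and 33 fell, beside 14.5% and 29% of all tested genes. In the test of whether the double mutant differs from the sum of the single changes, 0 of 49 passed by limma, as did 0% of all genes, 15 had an unadjusted p below 0.05, and voom quality weights called 36 beside 42.5% of all genes.

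Most members moved as 1 set across the 15 libraries. The log2 level of a member correlated with the mean of the other members at a median Pearson r of 0.78, and 20 of 49 were above 0.8, led by Psma5 (0.91), Psmb3 (0.91) and Psma7 (0.91). The lowest were Psmb9 (-0.23), Psmb8 (-0.16), Psme2b (0.07), Psme1 (0.10), Psme4 (0.10), Psma8 (0.18) and Psmg4 (0.18). The third immunoproteasome gene, Psmb10, stood between at 0.54. The points share the libraries that stand apart and the authors' scaling, so these r are descriptions of these 15 libraries. An F test over the 5 groups called 31 of 49 members, 63.3%, beside 44% of all tested genes (limma).

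The partners of the proteasome were followed through 5 lists: ubiquitin genes and their activating enzymes, factors that bind the proteasome or carry substrates to it, factors for assembly and transcription of subunits, genes of MHC class I processing, and interferon-stimulated genes. Of 18 measured bound and shuttle factors, 5 rose and 0 fell in the leukemic double mutant against WT, beside 10.8% of all tested genes that rose. The 5 were Nploc4, Usp14, Ubqln1, AI314180 and Ufd1l. The largest was Nploc4, a cofactor that brings ubiquitin-tagged proteins to the unfoldase Vcp, with 29.5, 43.2 and 27.6 CPM in WT and 121, 201 and 173 CPM in the leukemic libraries and a change of 2.30 ± 0.42 (standard error; limma adjusted p = 0.0035). Usp14, the deubiquitinase that docks on the base, had 218, 214 and 223 CPM in WT, 174, 179 and 153 in the double mutant, against 290.1, 590.5 and 413 in the leukemic libraries. It rose by 1.30 ± 0.24 (standard error; limma adjusted p = 0.0039) against the double mutant. There 2 of the 18 rose, Usp14 and Uchl5, beside 9.04% of all tested genes. Another 2, the shuttle gene Ubqln2 and the stress gene Zfand5, fell, beside 2123 of all 13927 tested genes. Neither count of 2 is read as a result about the list. The list's median was 0.50 against WT and 0.44 against the double mutant, beside 0.60 and 0.84 for the members.

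Of the 4 assembly and transcription genes 0 passed in either leukemic comparison by limma. Nfe2l1, whose product drives proteasome genes when the proteasome is inhibited, had 125, 153 and 110.1 CPM in the double mutant, against 143, 144 and 146 CPM in the leukemic libraries, a change of 0.17 ± 0.34 (standard error; limma adjusted p = 0.739). Nfe2l2, a stress factor known to act at antioxidant response elements, changed by 0.64 ± 0.24 (standard error; limma adjusted p = 0.06), and Pomp, the chaperone that matures the beta rings, by 0.23 ± 0.21 (standard error; limma adjusted p = 0.445). Of 5 ubiquitin and activating enzyme genes, 1, Uba1, which starts most ubiquitin transfer, rose against the double mutant by 1.03 ± 0.34 (standard error; limma adjusted p = 0.04). Its change against WT was 0.43 ± 0.34 (standard error; limma adjusted p = 0.368). Of 14 genes of MHC class I processing and its regulators, 0 passed against the double mutant by limma and 1, the transporter gene Tap2, fell against WT by 0.76 ± 0.22 (standard error; limma adjusted p = 0.025). Tap1, the neighbour of Psmb9, changed by 0.48 ± 0.42 (standard error; limma adjusted p = 0.423). Of 24 interferon-stimulated genes, Cmpk2 rose and Ddx58 fell against WT, and Rsad2 rose against the double mutant. The list medians were -0.28 and -0.06. Of all 13927 tested genes, 10.8% rose and 1938 fell against WT, and 9.04% rose and 2123 fell against the double mutant. Beside those, the few calls in these lists are not read as results about the lists.

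Sequences before the start sites are shown for 4 members outside the immunoproteasome that rose in the leukemic cells against the double mutant. Psmb8, which did not rise, is shown too, since members that moved together and apart can then be read side by side. Of the 50 members, 42 had an entry in the RefSeq promoter table (GRCm38.p6), and the 250 bases before each start were searched on both strands. The motifs were the interferon-stimulated response element core (GAAA, any 2 bases, GAAA, and its reverse), the gamma-activated site TTCNNNGAA, the antioxidant response element core TGACNNNGC (its reverse GCNNNGTCA) and the CCAAT box (its reverse ATTGG). Capitals mark matches. Psmb8 is chr17:34198088-34198117 (plus strand), only 30 bases since the stretch lies in an exon of an annotated Psmb8 transcript. Psmb3 is chr11:97703251-97703398 (plus), Psmb5 is chr14:54618023-54618062 (minus), Psmb6 is chr11:70525328-70525356 (plus) and Psmd9 is chr5:123228011-123228189 (plus), and these 4 stretches hold no annotated exon (GENCODE release M21).
Psmb8: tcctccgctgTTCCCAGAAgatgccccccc
Psmb3: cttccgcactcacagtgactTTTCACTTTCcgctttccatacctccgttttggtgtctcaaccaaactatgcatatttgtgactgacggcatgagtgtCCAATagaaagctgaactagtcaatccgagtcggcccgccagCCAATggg
Psmb5: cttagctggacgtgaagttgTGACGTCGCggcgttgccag
Psmb6: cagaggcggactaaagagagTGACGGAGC
Psmd9: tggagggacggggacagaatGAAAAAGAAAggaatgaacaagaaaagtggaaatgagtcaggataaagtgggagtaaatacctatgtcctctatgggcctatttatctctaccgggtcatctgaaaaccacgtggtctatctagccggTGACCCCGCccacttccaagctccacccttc
In Psmb8 the capitals are a gamma-activated site. In Psmb3 the first run is the interferon-stimulated core in reverse and the other 2 are CCAAT boxes. In Psmb5 and Psmb6 they are the antioxidant core, and in Psmd9 the first run is the interferon-stimulated core and the second the antioxidant core.

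Among the 45 promoter entries of the 42 members, the interferon-stimulated core was found in 3 (Psmb3, Psmd4 and Psmd9), beside 2.98% of all 32851 promoters of the same length. The gamma-activated site was found in 2 (Psmb8 and Psmg1), beside 7.02% of all promoters. The antioxidant core was found in 5 (Psmb5, Psmb6, Psmc6, Psmd9 and Psmd12), beside 10.2%, and the CCAAT box in 15, beside 33.8%. The antioxidant core overlaps none of the other motifs shown here. A match describes the letters only, and the absence of one says nothing of the factor.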

How the data were processed

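RNA from 15 libraries of sorted LSK bone marrow cells, prepared as stranded mRNA libraries per the labels, was analysed from 1 table deposited by the authors. Its values are log2 CPM that the authors made from gene counts, and each converted back to a whole count (100% of values, tolerance 1e-06) by undoing an added count of 0.5 and the library size the authors used. Tools named are STAR 2.4.0f1, bcl2fastq, limma 3.28.21 and edgeR 3.14.0, with builds mm10 and NCBIM37, per the submitters' processing notes. The role of each build, the counting tool, its annotation and its strand setting: not given in the sources used here. Groups came from the labels, and column N2-3 was read as Nras(G12D) library 2.

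Genes at 1 CPM or more in at least 3 libraries were fitted with limma 3.58.1 (R 4.3.3) on the deposited log2 values, all 5 groups in 1 model with 10 residual degrees of freedom, and Benjamini-Hochberg adjustment over all 13927 tested genes at 0.05. The fit was tested on simulated data that had the same spread setting for all genes and no libraries that stand apart. That test does not cover the effect of such libraries. Other scalings, filters, covariates, voom quality weights on the recovered counts and left-out libraries served as alternatives. Count models are not reported, since the deposited unit is log2. Total counts ran from 22733189 to 43562909. The library sizes behind the authors' values, 23541092 to 38711635, put the level of 3 counts at 0.0775 to 0.127 CPM, which covers counting error only.

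Values are given for Psmb5 to Psmb10, Psme1 and Psme2, for up to 3 members per role of smallest F test p, for up to 5 called members of largest change each way per comparison, and for up to 4 genes per pathway list; other genes are named to complete a count. The members and lists were chosen with earlier results of these data known. Some genes of the lists are not reported here and were left out of their counts and sums.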

Additional observations from a re-analysis of the deposited data

How the results depend on the processing

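Counts of members called moved by over 1.5 times under these settings. Against WT, 23 members rose in the leukemic double mutant, and the count was 7 with no filter, 4 with quantile normalization, 4 with total-count scaling, 8 with median centring, 42 with voom quality weights and 13 when only the 2 groups were fitted. Of all genes fitted, 1505 rose in the reported fit and 1262, 1387, 974, 1405, 4208 and 1487 rose under these settings in turn. The fit with no filter held every gene with any count, more than the 13927 of the others, so its 1262 is a smaller share. The voom weights of leukemic libraries 1 to 3 were 0.225, 0.433 and 4.11, so the 42 lean on library 3. Against the double mutant the 34 became 14 with quantile normalization and 11 when only the 2 groups were fitted. There 1259 of all genes rose in the reported fit, and 1204 and 342 under these settings in turn. For the double mutant against Tet2-/- the 11 became 4 with no filter, 36 with median centring, 41 with voom weights and 17 with a Y-linked covariate. Beside the 11, 2806 of all genes rose and 1193 fell. Under these settings in turn 2452, 2020, 4705 and 2848 rose and 415, 4039, 4097 and 1060 fell, where the 2452 and 415 with no filter again come from more genes. For Tet2-/- against WT the 0 became 33 with voom weights, beside 49.8% of all tested genes. For the double mutant against WT the 0 became 1 with quantile normalization or median centring, 10 with voom weights and 2 when only the 2 groups were fitted, and against Nras(G12D) 1 with quantile normalization or median centring. Against WT 140 of all genes rose and 73 fell with quantile normalization, and 66 and 41 with median centring. With voom weights these were 2561 and 1099, and 310 and 264 in the fit of 2 groups. Against Nras(G12D) 11 rose and 14 fell with quantile normalization, and 8 and 9 with median centring. The interaction had 36 with voom weights, beside 42.5% of all tested genes. The F test had 19 with no filter, 17 with quantile normalization, 18 with total-count scaling and 47 with voom weights. The shares of all genes in these F tests are not given here. The cause was not tested. The planned quasi-likelihood and Wald count tests are not reported, since the deposited unit is log2.

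Leaving out 1 library at a time gave 0 to 10 members for Tet2-/- against WT, 0 to 1 for the double mutant against WT, 1 to 32 and 12 to 38 for the leukemic double mutant against WT and the double mutant, 1 to 31 for the double mutant against Tet2-/-, 0 to 11 for the interaction and 15 to 39 for the F test. The 10 and the 31 came without Tet2-/- library 2, where 408 and 3416 of all tested genes rose and 1827 and 1827 fell. The 32 and 38 came without leukemic library 1, where 2352 and 2101 of all tested genes rose. Without leukemic library 2, which gave the 1 and the 12, 565 and 409 rose. Without WT library 1 or 3, 4 members rose in the leukemic double mutant against WT, beside 446 and 634 of all tested genes. Chosen after seeing the data, leaving out leukemic libraries 2 and 3 gave 0 in both leukemic comparisons, 19 for the double mutant against Tet2-/- and 4 in the F test. Leaving out Tet2-/- libraries 1 and 3, also chosen then, gave 0 for the double mutant against Tet2-/-, 1 against WT and 13 in the F test. In both, the lone library left is assumed to vary like the other groups. With Psmb5, Psmb6 and Psmb7 as the reference, the immunoproteasome difference of the double mutant was 0.54 from WT, 0.66 from Tet2-/- and 0.47 from Nras(G12D). Of 638 alternative values of 22 named changes, 491 kept the call, 147 kept the direction without it and 0 reversed.

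With the replicate number as a block, 4 members fell in Tet2-/- against WT (Psmd3, Psmd5, Psmd8 and Psme3). Beside them, 620 of all tested genes fell in this fit. In the reported fit 0 members and 17 of all tested genes fell there, so the block raised the count among all genes too. The other counts of members called stayed within 1.5 times. Same-numbered libraries correlated at -0.35 to 0.29 in their deviations from the group means, and 7 of 15 correlated best with a library of their own number. Whether same-numbered libraries share a batch was not tested.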
